A study of Mus musculus with 2 samples.

Results

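The 10 genes described here make, sense or answer to retinoic acid, and they were followed across the cells of the omentum of WT and Postn-DTR mice given diphtheria toxin. They were taken by symbol from the 19960 genes of the deposited tables. Aldh1a2, Rdh10 and Dhrs3 act on retinol or retinal, and Rara, Rarg and Rxra are receptors. Asb2, Itga4, Itgb7 and Ccr9 respond to retinoic acid in lymphocytes. All 10 gave unique molecular identifiers (UMIs, the tags that mark single captured transcripts) in both libraries. Levels of Aldh1a2 and Rdh10 were read mainly in stromal cells, dendritic cells and macrophages, and the other genes in T, B, innate lymphoid and myeloid cells.

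Retinoic acid is made from vitamin A in steps. Retinol is oxidized to retinal, for which Rdh10 is a main enzyme, and retinal is oxidized to retinoic acid by the retinaldehyde dehydrogenases, among which is Aldh1a2, while Dhrs3 turns retinal back into retinol. Retinoic acid binds the receptors RARα (Rara) and RARγ (Rarg), which sit on DNA as dimers with a retinoid X receptor such as RXRα (Rxra). In the gut and in peritoneal tissue, stromal cells and some dendritic cells and macrophages are known sources, and lymphocytes that meet retinoic acid can gain the integrin α4β7 (Itga4 and Itgb7) and the chemokine receptor CCR9.

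Single-cell suspensions of whole omentum, an apron of visceral fat with immune cell clusters (milky spots), were captured by droplets, with 1 library for each group and 3 pooled mice per library. WT mice and heterozygous Postn-DTR mice, whose diphtheria toxin receptor was inserted into the first coding exon of Postn and so follows its promoter, both received the toxin (DT) and were analysed 5 days later. Their ages were not given in the sources used here. The comparison is of the same cell classes after toxin in mice whose Postn-expressing cells do and do not carry the receptor. Because each group is 1 library, no test was made, and a fixed rule of size stands in its place. Intervals (95%, exact) on UMIs and shares reflect counting error only, and the spread between mice is unknown.

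The libraries held 8654 WT and 5727 Postn-DTR cells after filtering, with 80152156 and 81011247 UMIs and a median of 5635 and 8472 UMIs per cell. A set of 65 barcodes occurred in both. Clusters were formed without the 10 genes, without the other retinoid, receptor, response and homing genes listed further on and without antigen receptor variable genes, and were named "X-like" from marker genes. Plasma-like cells numbered 573 in the WT and 2049 in the Postn-DTR library, and T-like cells 3144 and 507. Postn, the gene whose promoter drives the receptor, gave 56 UMIs in 57 WT stromal cells and 19 in 25 Postn-DTR stromal cells, at levels of 0.59 and 0.25, a log2 ratio of -1.27 that was -0.49 on summed UMIs with an interval across 0 (-1.33 to 0.28), and the shares of stromal cells with a UMI overlapped (24.6% and 28%). A level here is the mean over cells of UMIs per 10000 UMIs of the cell.

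Aldh1a2 (chromosome 9, 71215789 to 71296243, plus strand of GRCm38), which makes retinoic acid from retinal, was restricted to few cells. In WT stromal cells 37 of 57 cells held 302 UMIs at a level of 2.50. The Retnla-type subcluster described further on had nearly the same level, 2.48, and the order of the pair is not settled: without the barcodes found in both libraries it was first (2.55 against 2.37). In Postn-DTR omentum 9 of 25 stromal cells held 28 UMIs at a level of 0.48, a log2 ratio of -2.38 (-2.37 on summed UMIs, interval -2.98 to -1.81). Among all genes compared in stromal cells 16.7% were past 2-fold lower, so the ratio stands in a class where lower values were common. With each cell thinned to 1000 UMIs, as a mean over all possible draws, 18.1% of the WT and 4.56% of the Postn-DTR stromal cells kept a UMI of Aldh1a2. A single draw was unstable at these cell numbers and is not used for shares. In T-like cells, which should lack the enzyme, the levels were 0.011 and 0.0053 and the thinned shares 0.11% and 0.0534%.

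The WT stromal UMIs of Aldh1a2 came from fibroblast-like cells and mesothelial-like cells, the flat cells that line the omentum. In WT fibroblast-like cells 12 of 13 held a UMI, at a mean level of 5.73 that rested in part on 1 cell with 44 of the 140 UMIs. In WT mesothelial-like cells 15 of 16 held a UMI, with 122 UMIs and a level of 3.43. Contractile stromal cells led by Tagln and Acta2 had none in either library (0 of 17 WT cells and 0 of 9 Postn-DTR cells, which allow shares of up to 17.6% and 33.3%). Stromal cells that also carried leukocyte genes had an intermediate level of 1.21.

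In the Postn-DTR library only 3 fibroblast-like cells and 1 mesothelial-like cell were found. The fibroblast-like cells had no Aldh1a2 UMI, with an upper limit of 0.399 UMIs per 10000, and the mesothelial-like cell had 6. Of the 28 UMIs, 16 lay in 8 stromal cells that also carried plasma cell genes, at a level of 0.914. Weighting the WT subclusters by the Postn-DTR proportions gave a WT level of 1.29, and weighting the Postn-DTR subclusters by the WT proportions gave a Postn-DTR level of 0.709, so part of the difference moved with the makeup of the few stromal cells. Without the stromal cells that carried leukocyte or plasma cell genes the levels were 2.81 (46 WT cells) and 0.159 (13 Postn-DTR cells). The log2 ratio thus ran from -1.43 with the first weighting to -4.15 without the mixed cells, choices made after seeing the data.

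Other genes of the stromal cells moved in the same comparison. The summed level of 8 mesothelial markers went from 19.98 in WT to 5.75 in Postn-DTR stromal cells and that of 9 fibroblast markers from 108 to 61.8, with every marker of both lists detected in both libraries. The summed level of 8 plasma cell markers, all detected, went from 4.98 to 77.8, and that of the immunoglobulin constant genes from 14.4 to 284. Within fibroblast-like cells, the mesothelial sum was 14.6 in WT, with 8 of 8 markers detected, and 0.727 in the 3 Postn-DTR cells, with 2 of 8. The part of these shifts in the Aldh1a2 level was not tested, and fewer Aldh1a2+ cells cannot be told apart from less Aldh1a2 per cell at 25 cells.

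**Figure D1:**
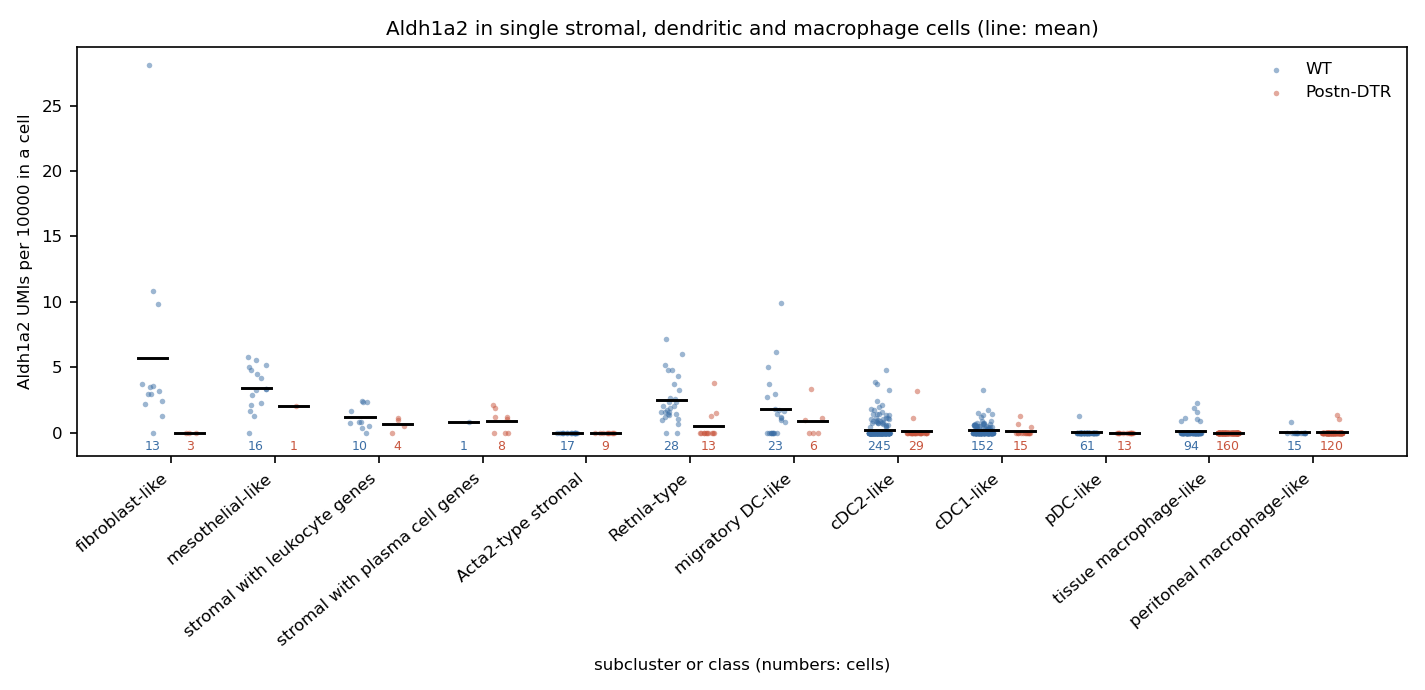
Aldh1a2 in single cells (UMIs per 10000 UMIs of the cell, vertical axis) of each stromal, dendritic and macrophage subcluster or class, WT in blue and Postn-DTR in red, with the number of cells below and a line at the mean. Fibroblast-like, mesothelial-like and Retnla-type cells of WT omentum sit well above 0, whereas the 3 fibroblast-like Postn-DTR cells and all Acta2-type stromal cells are at 0.

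Outside the stroma, Aldh1a2 was high in 2 small subclusters split from the main dendritic cluster. One of them, led by Retnla, Lyz1, Fcrls and Ear2, carried tissue macrophage markers and was given no cell type name. It had Aldh1a2 in 26 of 28 WT cells (72 UMIs, level 2.48). Migratory dendritic cell-like cells, marked by Ccr7, Fscn1 and Ccl22, had it in 14 of 23 cells (43 UMIs, level 1.79), and the intervals of the summed levels overlapped (2.02 to 3.25 and 1.33 to 2.48). Conventional dendritic cells were far below both, with 0.212 in cDC2-like and 0.174 in cDC1-like cells, and pDC-like cells held 1 UMI in 61 cells. The corresponding Postn-DTR cells were too few for a ratio: 3 of 13 Retnla-type cells held 3 UMIs (level 0.506) and 3 of 6 migratory cells held 5 UMIs (level 0.903). The thinned shares of Retnla-type cells were 21.9% for WT and 5.06% for Postn-DTR. The summed level of 10 tissue macrophage markers in the Retnla-type subcluster was 42.9 in WT and 106 in Postn-DTR, with 9 detected in both, and the part of this in the Aldh1a2 level was not tested.

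In the named macrophage classes Aldh1a2 was at or near 0. Tissue macrophage-like cells, marked by Lyve1, C1q genes and Pf4, had 7 UMIs in 94 WT cells and none in 160 Postn-DTR cells, so that a share of up to 1.88% is possible in the latter. The median depth of the class was 4546 UMIs in WT and 2009 in Postn-DTR, and the thinned shares were 1.05% and 0%. Peritoneal macrophage-like cells had 1 UMI in 15 WT cells and 2 in 120 Postn-DTR cells.

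Since the transcripts in a tissue depend on cell number as well as on level, the UMIs of each library were also summed over compartments. The WT library held 701 Aldh1a2 UMIs, 43.1% of them in stromal cells, which were 0.659% of its cells, and 39.4% in cells of the dendritic clusters, with which the 72 UMIs of the unnamed Retnla-type cells are counted. With the richest WT cell left out this order turned, to 39.3% stromal and 42.0% dendritic. The Postn-DTR library held 273, of which 10.3% were stromal and 5.86% dendritic. Plasma cells, with a level of only 0.0463 per cell, held 78.4% of the Postn-DTR UMIs against 8.13% in WT, and they were deep (median 23266 UMIs in the noncycling cells) and many. The thinned share of noncycling plasma-like cells was 0.401% in Postn-DTR and 0.273% in WT.

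Rdh10 (chromosome 1, 16105774 to 16133734, plus strand) was low throughout. The libraries held 239 and 174 UMIs of Rdh10. Stromal cells had 0.116 in WT and 0.171 in Postn-DTR (18 and 8 UMIs), above 0.0393 and 0.0182 in T-like cells, and the thinned shares were 1.14% and 1.68% in stromal against 0.388% and 0.183% in T-like cells. The WT stromal level was the highest among the classes of at least 20 cells used for ratios, though it rested on few UMIs. In the mesothelial-like and fibroblast-like cells of WT, where Aldh1a2 was high, 4 of 16 and 3 of 13 cells held a Rdh10 UMI. Cells of the dendritic clusters gave 28 UMIs in 675 WT cells and 0 in 102 Postn-DTR cells, and macrophages 10 in 120 and 10 in 328. Of the 10 WT macrophage UMIs, 6 came from 1 cell that also carried fibroblast genes. Only plasma-like cells had enough UMIs for a ratio, which was 0.24 on the log2 scale (24 and 85 UMIs), and they held 59.8% of the Postn-DTR UMIs once cycling cells were included.

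**Figure D2:**
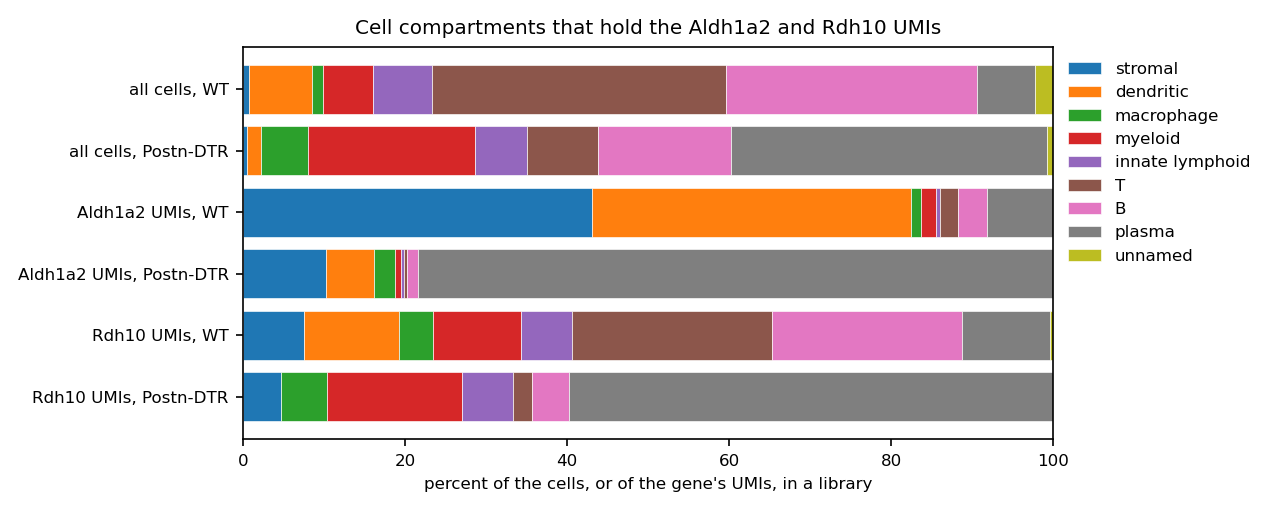
Share of all cells and share of the Aldh1a2 and Rdh10 UMIs (percent, horizontal axis) in each cell compartment of the WT and Postn-DTR libraries. Stromal cells and cells of the dendritic clusters hold 43.1% and 39.4% of the WT Aldh1a2 UMIs, and plasma cells 78.4% of the Postn-DTR ones. The dendritic clusters include the unnamed Retnla-type cells, with 72 WT UMIs.

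Dhrs3 (chromosome 4, 144892827 to 144928209, plus strand), which reduces retinal and is itself induced by retinoic acid in many cells, was highest in macrophages. Tissue macrophage-like cells had a level of 3.77 in WT and 2.64 in Postn-DTR (196 and 115 UMIs), a log2 ratio of -0.51. Peritoneal macrophage-like cells had 3.76 in 15 WT cells and 1.87 in 120 Postn-DTR cells. The intervals of the summed level were 2.96 to 5.11 and 1.34 to 1.91. With 15 WT cells no ratio was taken, so no share over all genes stands beside these values. The tissue macrophage-like cells came mainly from different subclusters, with 85 of 94 WT cells in one and 114 of 160 Postn-DTR cells in another, shallower one. Within the deeper subcluster, which held 46 Postn-DTR cells, the Dhrs3 levels were 4.01 and 3.04. In the shallower one they lay in the other order, 1.59 in 9 WT cells and 2.48 in 114 Postn-DTR cells.

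Over the classes compared, Dhrs3 was more often higher than lower in Postn-DTR. The Postn-DTR value was the higher one in 7 of 11 classes that passed the minimum of 50 UMIs over both libraries. These 11 include tissue macrophage-like cells. The median log2 ratio was 0.34, against -0.040 for all genes in all classes. LTi-like cells, the innate lymphoid cells marked by Il22 and Tnfsf11, went from 33 UMIs in 55 cells (level 1.15) to 51 UMIs in 50 cells (level 2.39). This was a log2 ratio of 1.06, or 0.92 on summed UMIs (0.26 to 1.602). Treg-like cells went from 0.234 to 0.471 (51 and 16 UMIs), a log2 ratio of 1.01 that was 0.65 on summed UMIs (-0.26 to 1.49). In stromal cells the ratio of means was 0.57, and that of summed UMIs 1.10 (0.45 to 1.75), from 42 and 43 UMIs. Of the 43 Postn-DTR UMIs, 10 came from 1 Acta2-type cell, 6 from 1 fibroblast-like cell and 6 from 1 cell with leukocyte genes. Levels in WT and Postn-DTR were 1.48 and 0.958 in Acta2-type cells. They were 0.147 and 0.792 in fibroblast-like cells and 0.342 and 2.75 in cells with leukocyte genes. The other subclusters each had only 1 cell in 1 library, and the part of the stromal mix was not tested. In NK-like cells the levels were 0.806 and 1.02.

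Across the 10 genes, 99 combinations of gene and cell class had at least 50 UMIs over both libraries and 20 cells in each, in 22 classes. Values at least 2-fold higher in Postn-DTR were seen in 2 of these, both of Dhrs3, where 3.25% of all 127412 gene and class combinations were higher by that rule. Values at least 2-fold lower were seen in 10, where 5.87% of all combinations were lower. These 10 were Aldh1a2 in stromal cells, Asb2 in 5 classes, Ccr9 in CD4 T-like and CD8 T-like cells, Rara in naive CD4 T-like cells and Itgb7 in Ltf-type neutrophil-like cells. Of the 99 ratios, 69 were below 0, as were 68207 of the 127412 over all genes. That share is the background for the counts of classes given for single genes.

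**Figure D3:**
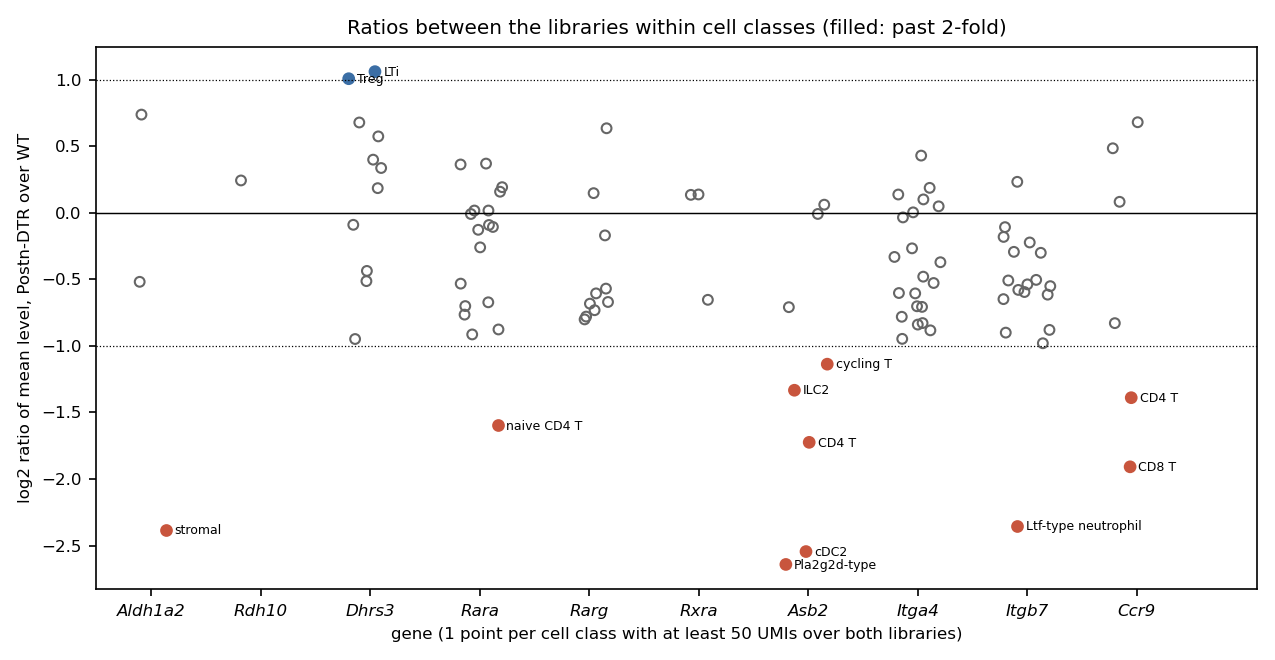
Log2 ratio of the mean level, Postn-DTR over WT (vertical axis), for each of the 10 genes, 1 point per cell class with at least 50 UMIs, filled and named where past 2-fold (dotted lines at 1 and -1). Asb2 has 5 filled points below the lower line, with the lowest at -2.64, and Dhrs3 has both points above the upper line.

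The receptors were expressed widely. Rara (chromosome 11, 98927818 to 98974942, plus strand) was highest in myeloid, LTi-like and γδ T-like cells of WT omentum: 1.89 in monocyte-like, 1.74 in LTi-like, 1.497 in mature neutrophil-like and 1.17 in γδ T-like cells. The intervals of the first 3 overlapped on summed UMIs (1.49 to 2.10, 1.26 to 2.28 and 1.11 to 2.09), so their order is not settled. In Postn-DTR omentum mature neutrophil-like cells were first with 1.93, and monocyte-like cells had 1.17. Rara was below WT in 12 of 18 classes, with a median log2 ratio of -0.12. In monocyte-like cells the log2 ratio was -0.70 (140 and 137 UMIs, interval on sums -1.08 to -0.38) and in LTi-like cells -0.91 (47 and 21 UMIs, -1.68 to -0.096). The only value past 2-fold, -1.598 in naive CD4 T-like cells, rested on 2 UMIs in 22 Postn-DTR cells, and its interval on sums ran from -3.88 to 1.10.

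Rarg (chromosome 15, 102234938 to 102257517, minus strand) was concentrated in lymphoid cells that make IL-17, IL-22 or type 2 cytokines. LTi-like cells had 2.13 in WT and 1.32 in Postn-DTR, γδ T-like cells 1.27 and 0.739, and ILC2-like cells 0.921 and 0.528. These 3 classes kept the same order in both libraries. B2 B-like cells, by contrast, had 5 UMIs in 1526 WT cells. Rarg was below WT in 8 of 10 classes, with a median log2 ratio of -0.64 and no value past 2-fold. In γδ T-like cells the log2 ratio was -0.78 (304 and 28 UMIs, -1.33 to -0.15 on sums), and in cDC2-like cells it was 0.63 in the other direction (84 and 15 UMIs, -0.015 to 1.69).

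Rxra (chromosome 2, 27676440 to 27762957, plus strand) was mainly a macrophage gene here. WT levels were 0.985 in the subcluster led by Pla2g2d, Vcam1 and Ccl8, which carried tissue macrophage markers and was given no name, and 0.603 in tissue macrophage-like cells. Stromal cells had 0.250 and cDC1-like cells 0.184. In tissue macrophage-like cells the Postn-DTR level was 0.662, a log2 ratio of 0.13 (29 and 27 UMIs, -0.68 to 0.94 on sums). The ratio in CD4 T-like cells was 0.14, from 53 and 7 UMIs.

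**Figure D4:**
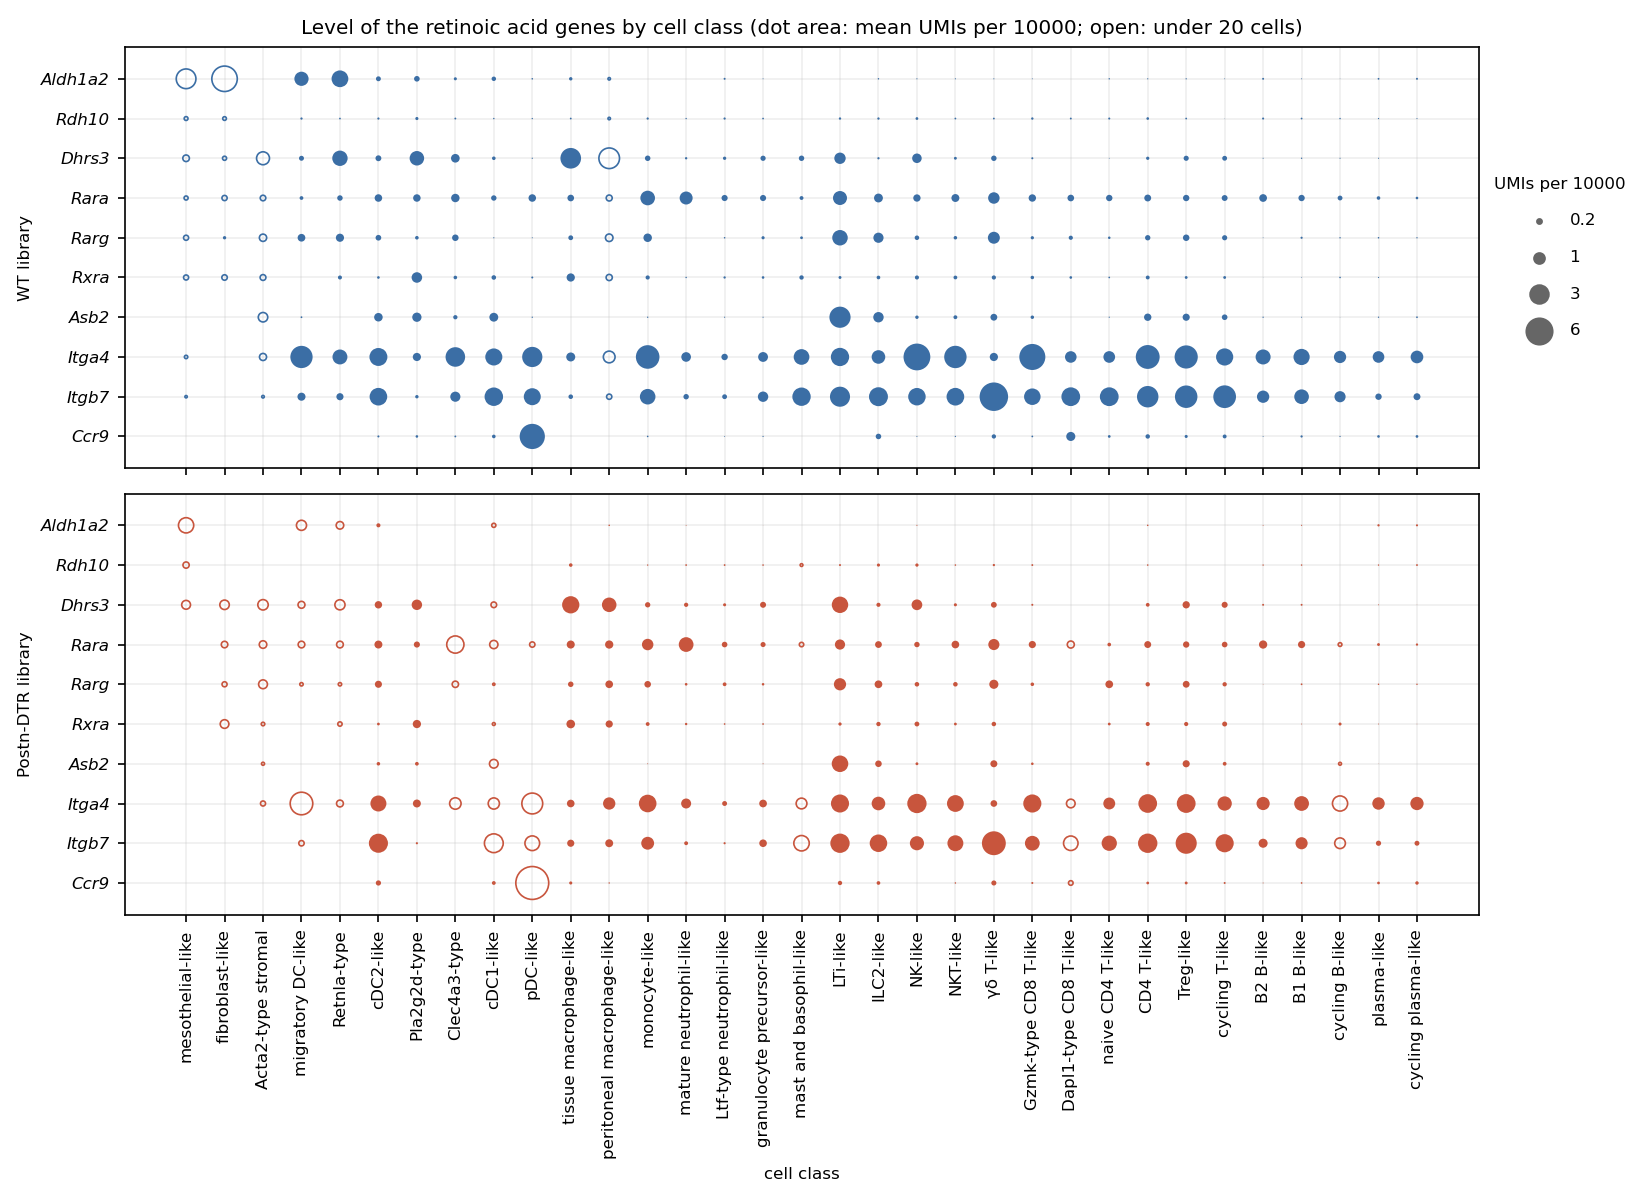
Level of the 10 genes (dot area, mean UMIs per 10000) in each named cell class or subcluster, WT above and Postn-DTR below, with open dots for fewer than 20 cells. Aldh1a2 is largest in fibroblast-like, mesothelial-like, Retnla-type and migratory dendritic cell-like cells of WT, Asb2 is largest in LTi-like cells (3.97 and 2.43) and Ccr9 in pDC-like cells (5.64 and 9.58).

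The receptors bind direct repeats of a hexamer, called DR1, DR2 or DR5 by the number of bases between the repeats. The hexamers AGGTCA or GGGTCA or AGTTCA or GGTTCA were searched in any combination, on both strands, in the RefSeq promoter windows of GRCm38.p6 (250 bases before to 50 after each gene start). Of 32851 windows, 0.588% held at least 1 such repeat, 0.222% a DR1, 0.268% a DR2 and 0.0974% a DR5. None of the 17 windows of the 9 members with an entry held one, and Rdh10 had no entry. The DR5 matches of Rarb, a receptor gene, and of Cyp26a1, which breaks down retinoic acid, are shown because they are the textbook form of a retinoic acid response element. Capitals mark the repeat. The Rarb stretch is chr14:16575477-16575574 on the minus strand, with the repeat starting 53 bases before the gene start, and the Cyp26a1 stretch is chr19:37697731-37697807 on the plus strand, with the repeat read on the other strand and starting at -32.
Rarb: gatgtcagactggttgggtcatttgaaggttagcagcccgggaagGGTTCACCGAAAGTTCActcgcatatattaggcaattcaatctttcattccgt
Cyp26a1: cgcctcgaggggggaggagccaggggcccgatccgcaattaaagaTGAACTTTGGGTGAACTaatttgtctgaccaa
A match describes letters in a window and no binding was measured. Both genes were scarce: Rarb had 83 UMIs in the WT library and 41 in the Postn-DTR library, and Cyp26a1 had 15 and 85, of which 73 lay in 120 Postn-DTR peritoneal macrophage-like cells (level 0.911).

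Asb2 (chromosome 12, 103321142 to 103356001, minus strand), the substrate-recognition subunit of a ubiquitin ligase first described as a retinoic acid-induced gene, was the member with the most values past 2-fold. In WT omentum LTi-like cells had by far the highest level, 3.97, with a UMI in 41 of 55 cells. Among classes of at least 20 cells, ILC2-like cells followed with 0.961, Pla2g2d-type cells with 0.762, cDC1-like cells with 0.697, cDC2-like cells with 0.646 and CD4 T-like cells with 0.48. On summed UMIs the interval of LTi-like cells (3.03 to 4.51) overlapped none of the others. Neutrophil-like cells, which should lack the gene, had thinned shares of 0.0828% and 0%. Stromal cells, also taken as background, were not free of it: 7 of 17 WT Acta2-type cells held 12 UMIs (level 0.793). The WT mesothelial-like and fibroblast-like cells held 0.

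Asb2 was below WT in 7 of 8 classes, with a median log2 ratio of -1.24, and 5 were past 2-fold. CD4 T-like cells went from 191 UMIs in 846 cells (0.48) to 8 UMIs in 132 cells (0.145), a log2 ratio of -1.72 (-2.86 to -0.62 on sums), where 4.68% of the genes of the class were past 2-fold lower. ILC2-like cells went from 82 UMIs in 188 cells to 26 in 168 cells, a log2 ratio of -1.33 (-1.83 to -0.48), where 3.31% of genes were. In cycling T-like cells the ratio was -1.14, from 49 and 7 UMIs, and its interval on sums reached 0.019.

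The lowest Asb2 ratios were in cDC2-like cells and in the unnamed Pla2g2d-type subcluster. In cDC2-like cells 188 UMIs in 245 WT cells (0.646) compared with 5 UMIs in 29 Postn-DTR cells (0.111), a log2 ratio of -2.55, or -1.86 on sums (-3.50 to -0.61). In that class 13.8% of genes were past 2-fold lower. The summed level of 9 migratory dendritic cell markers in cDC2-like cells was 4.56 in WT (9 detected) and 1.46 in Postn-DTR (6 detected), that of 8 pDC markers 4.84 and 14.2, and that of 8 plasma cell markers 2.04 and 5.62, and the part of these shifts was not tested. Pla2g2d-type cells gave 49 UMIs in 30 WT cells and 2 in 20 Postn-DTR cells (log2 ratio -2.64), but 19 of the 49 came from 1 cell.

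In the remaining classes Asb2 differed less. LTi-like cells went from 102 UMIs (3.97) to 60 UMIs (2.43), a log2 ratio of -0.71 whose interval on sums reached 0.0043. γδ T-like cells had 0.415 and 0.433, and Treg-like cells 0.453 and 0.45. Thinned shares were 4.41% and 1.33% in CD4 T-like cells, and 8.71% and 3.50% in ILC2-like cells. Reads of Asb2 may include those of Gm15523, an antisense transcript inside it that the files also list, depending on how strand was used in counting.

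**Figure D5:**
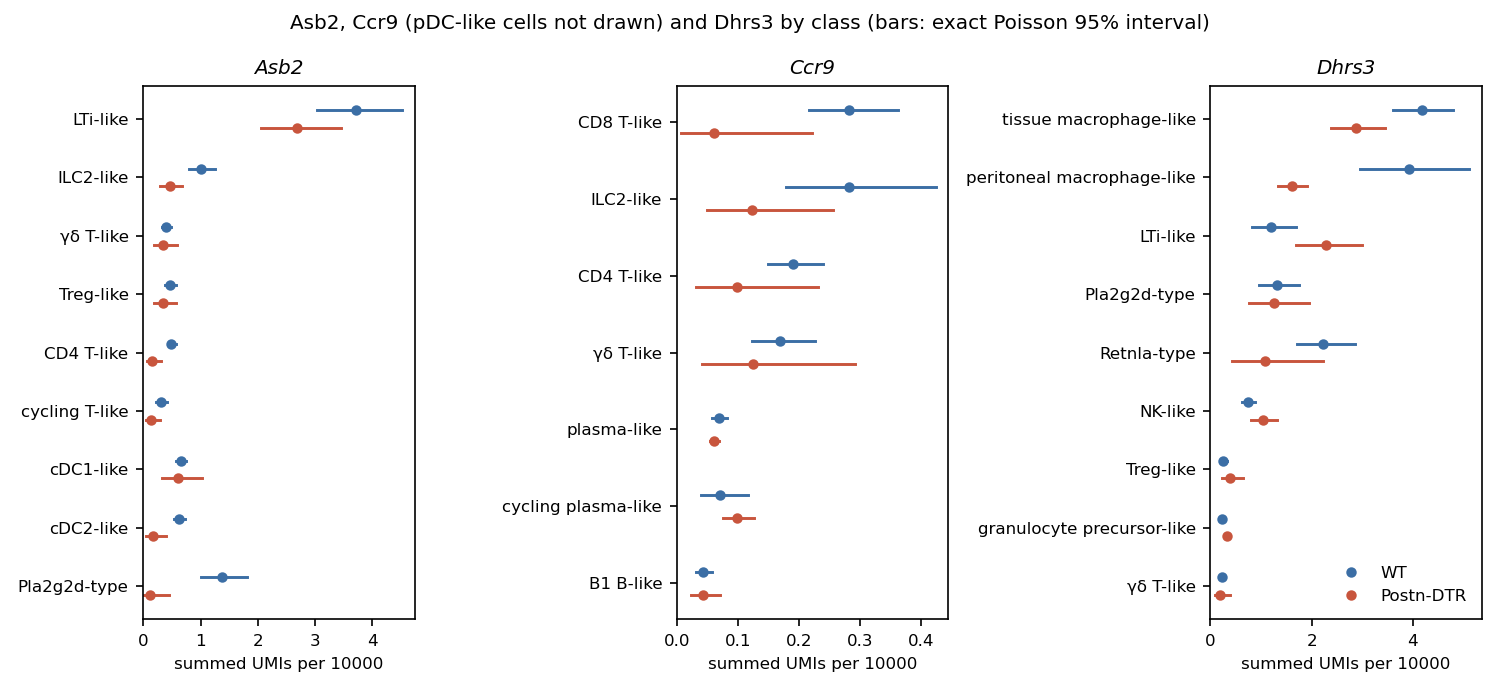
Summed UMIs per 10000 (horizontal axis) of Asb2, Ccr9 and Dhrs3 in the classes where each was most abundant (pDC-like cells not drawn), WT in blue and Postn-DTR in red, with exact Poisson 95% intervals for counting error. For Asb2 the Postn-DTR value lies below WT in, among others, ILC2-like, CD4 T-like, cDC2-like and Pla2g2d-type cells. In these 3.31%, 4.68%, 13.8% and 6.8% of all genes were past 2-fold lower. In Pla2g2d-type cells 19 of the 49 WT UMIs came from 1 cell. For Dhrs3 the libraries lie in opposite orders in macrophages and LTi-like cells.

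Of the homing genes, Itga4 (chromosome 2, 79255426 to 79333123, plus strand), the α4 chain shared by the integrins α4β1 and α4β7, was broadly expressed. NK-like cells were highest, with 6.36 for WT and 3.30 for Postn-DTR, followed in WT by Gzmk-type CD8 T-like cells with 6.01 and CD4 T-like cells with 5.05. Stromal cells, taken as background, had 0.502 and 0.676. Itga4 was below WT in 15 of 21 classes, with a median log2 ratio of -0.48 and none past 2-fold. In NK-like cells the ratio was -0.95 (1042 and 205 UMIs, -1.20 to -0.75 on sums), and the thinned shares were 42.2% and 23.9%. CD8 T-like (-0.88), monocyte-like (-0.84), NKT-like (-0.83) and CD4 T-like cells (-0.71) were close behind. Plasma-like, LTi-like and ILC2-like cells differed little, with log2 ratios of 0.19, -0.035 and 0.0030.

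Itgb7 (chromosome 15, 102215995 to 102231944, minus strand), the β7 chain, was highest in γδ T-like cells, with 7.19 in WT and 5.05 in Postn-DTR. Cycling T-like cells (4.57 in WT), Treg-like cells (4.48) and CD4 T-like cells (4.08) came next. Plasma-like cells were low, with 0.362 and 0.242. Itgb7 was below WT in 17 of 18 classes, with a median log2 ratio of -0.54, and the class above 0 was cDC2-like cells (0.23). Over all genes and classes 68207 of 127412 ratios were below 0. The value past 2-fold in Ltf-type neutrophil-like cells, -2.35, came from 60 and 8 UMIs at levels of 0.206 and 0.0404. The thinned shares were 1.93% and 0.417%, and neutrophil-like cells had been taken as background for this gene. In B2 B-like cells the ratio was -0.88 (986 and 108 UMIs, -1.28 to -0.69 on sums), in γδ T-like cells -0.51, and in Treg-like cells -0.18.

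The pair of integrin chains thus had different leading classes. NK-like cells had 6.36 Itga4 and 2.71 Itgb7 UMIs per 10000 in WT, whereas γδ T-like cells had 0.599 and 7.19. Both chains were below WT in, among others, CD4 T-like, CD8 T-like, NK-like, NKT-like, monocyte-like and B2 B-like cells, and in none of these was either past 2-fold. Itgb7 and Rarg are neighbours on chromosome 15, transcribed in the same direction with 2993 bases and no other annotated gene between them.

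Ccr9 (chromosome 9, 123678439 to 123784330, plus strand), the receptor for the chemokine CCL25, was a pDC gene in this tissue. pDC-like cells, the plasmacytoid dendritic cells marked by Siglech, had 5.64 in WT (58 of 61 cells, 291 UMIs) and 9.58 in Postn-DTR (11 of 13 cells, 96 UMIs). With 13 Postn-DTR cells no ratio was taken. The thinned shares were 39.8% and 53.9%. The next class was the Dapl1-type CD8 T-like cells, a subset led by Dapl1, with 0.733 in WT (43 of 155 cells) against 0.0271 in the Gzmk-type subset.

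Elsewhere the direction varied, with 3 of the 6 classes compared higher and 3 lower in Postn-DTR (median log2 ratio -0.37), and 5 of the 6 lower on summed UMIs. CD8 T-like cells had 62 UMIs in 369 WT cells (0.323) and 2 in 48 Postn-DTR cells (0.0861), a log2 ratio of -1.91 (-5.28 to -0.29 on sums), where 6.65% of genes in the class were past 2-fold lower. The Dapl1-type subset was 155 of 369 cells in WT and 16 of 48 in Postn-DTR, and within them the levels were 0.733 and 0.186 (59 UMIs and 1 UMI). CD4 T-like cells had 74 and 5 UMIs, with a log2 ratio of -1.39 on the means and -0.94 on sums, whose interval crossed 0 (-2.60 to 0.35). In γδ T-like cells (45 and 5 UMIs) the levels were 0.164 and 0.229, a log2 ratio of 0.48 that was -0.44 on sums. Plasma-like cells held 121 and 306 UMIs at nearly the same level, 0.0611 and 0.0647. The gene body of Ccr9 overlaps Lztfl1, Slc6a20a and AC165425.1 on the opposite strand and the noncoding Gm17200 on the same strand. These are listed in the files, so reads of Ccr9 could be shared with them, depending on how strand was used in counting.

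For Aldh1a2, Asb2, Itgb7 and Ccr9, the genes with the most similar WT profile were sought by Pearson correlation of log2 levels over 29 classes, among 11295 genes, as a description. The classes come from 1 library and differ in depth. Plxna4 (0.90), Palld (0.86) and Tmcc2 (0.84) were closest to Aldh1a2. Gdpd5 (0.80), Plcb4 (0.74) and Mdfic (0.74) were closest to Asb2, Cyld (0.88), Ddx50 (0.88) and Sigirr (0.85) to Itgb7, and Ccdc162 (0.88), Klk1b27 (0.88) and Myh13 (0.87) to Ccr9.

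The wider retinoid pathway was described from lists. Of 33 genes of retinoid uptake, synthesis, storage and breakdown, 26 were in the files and 13 had enough UMIs for 96 ratios, of which 9 were past 2-fold higher and 6 lower (median log2 ratio 0.12), where 3.25% of all gene and class combinations were higher and 5.87% lower. Aldh1a1, the other retinaldehyde dehydrogenase seen, was a mesothelial gene in WT, with 77 UMIs in 16 mesothelial-like cells (level 2.32) and 114 of 127 library UMIs in stromal cells. Fabp5, which can pass retinoic acid to another nuclear receptor, went from 10 to 97 UMIs in tissue macrophage-like cells (0.161 and 1.79, log2 ratio 3.47) and from 154 to 87 UMIs in CD4 T-like cells (0.324 and 0.972, 1.59). Rdh12, a retinal reductase, was 0.55 and 1.12 in B1 B-like cells (log2 ratio 1.02).

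Of 9 further receptors and cofactors 7 were compared, in 131 ratios, with 3 past 2-fold higher and 4 lower (median -0.11), against the same 3.25% and 5.87%. Of 14 other genes known to respond to retinoic acid in some setting, 11 were compared, with 8 of 81 ratios past 2-fold higher and 11 lower (median -0.30), again beside 3.25% and 5.87% over all genes. Their directions were mixed: Tgm2, transglutaminase 2, went from 9 to 67 UMIs in ILC2-like cells (log2 ratio 3.05) and from 219 to 2 UMIs in cDC2-like cells (-2.60). Cd38, an NAD-consuming ectoenzyme, went from 6 to 126 UMIs in monocyte-like cells (4.20) and from 73 to 3 in CD4 T-like cells (-1.77). Ccr10, a homing receptor of antibody-secreting cells, went from 159 to 49 UMIs in plasma-like cells (-3.21).

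Partners and ligands of the homing genes (11 listed, 11 compared) gave 5 of 120 ratios past 2-fold higher and 12 lower, with a median of -0.29, where the shares over all genes were 3.25% and 5.87%. Vcam1, a ligand of α4β1, was higher in tissue macrophage-like cells (3 and 74 UMIs, log2 ratio 4.59) and at -1.10 in stromal cells. The last list held 24 genes with which the study described Aldh1a2+ or other stromal cells. Most of its genes were kept in the clustering (Vcam1 was not). Since the list was partly chosen on these mice, it is not independent of the comparison. Of its 41 ratios 4 were past 2-fold higher and 22 lower, with a median of -1.03, beside 3.25% and 5.87% over all genes and classes. In stromal cells 4.38% of all genes were higher and 16.7% lower, with a median log2 ratio of -0.27. There Lrrn4 (-2.79), Upk3b (-1.91) and Msln (-1.15), all mesothelial, and the transcription factor Wt1 (-1.22) were lower. Cxcl12 (2.33) and Ptx3 (1.08) were higher. Gata6, from the list of response genes, was lower (-1.98). By contrast, the paper reports less Cxcl12 by quantitative PCR in Postn-DTR omentum and in its sorted endothelial cells and fibroblastic reticular cells. The stromal mix differed here, with 13 WT and 3 Postn-DTR fibroblast-like cells, and 1 and 8 cells with plasma cell genes. The part of this mix was not tested.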

How the data were processed

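Omentum libraries were sequenced and aligned to mm10 with Cell Ranger 6.0.0, per the labels. The deposited values are the natural log of 1 plus UMIs scaled to 10000 per cell, as the authors normalized them, and UMIs were recovered from them (99.96% of WT and 99.90% of Postn-DTR values came out whole within 0.1 UMI). Both sample matrices were used, with 0 unmapped columns. Cells with 200 to 7500 genes and at most 25% mitochondrial UMIs were clustered with Seurat 5.3.0 in R 4.3.3 (3000 variable genes, 30 components, resolution 0.8), and stromal, dendritic and macrophage clusters were divided with scanpy 1.11.5. Doublets marked by Scrublet (152 WT and 103 Postn-DTR cells, at 1 threshold for both) were removed only in an alternative, since the automatic threshold marked 2 WT cells. Ratios were taken where both libraries together held 50 UMIs and each had 20 cells, and a value was counted when past 2-fold. Ratio intervals were exact conditional binomial, levels exact Poisson and shares Clopper-Pearson. Shares were also computed on cells thinned to 1000 UMIs. The share first planned came from 1 random draw, which moved between draws in small classes, so the printed thinned shares are the mean over all possible draws (hypergeometric), chosen after seeing the data. Where no cell had a UMI, the upper limit printed is 3 cells of the total. All 10 genes are named. Other list genes are named where they held 50 UMIs in a class of 1 library or passed 2-fold. The members and lists were chosen with earlier results of these data known. Calculations used Python 3.11.15, scipy 1.17.1 and numpy 2.4.6. The ratio step was tested on simulated data. Gene positions came from the GRCm38 annotation. Some genes of the lists are not reported here by name.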

Additional observations from a re-analysis of the deposited data

How the results depend on the processing

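With 1 library per group, differences between mice could not be separated from differences between groups, and stromal values rest on 57 and 25 cells. No paired analysis was possible because each group has 1 library and no test was made. Of the 99 combinations, 2 were past 2-fold higher and 10 lower. On summed UMIs 1 was higher and 9 lower, beside 2.705% and 5.196% over all genes. A minimum of 20 UMIs gave 6 higher and 17 lower of 141, a minimum of 100 UMIs 0 higher and 4 lower of 66, and a 1.5-fold threshold 6 and 40. The share of all genes past the threshold moved too, to 9.363% lower with 20 UMIs, 3.865% with 100 and 14.84% at 1.5-fold. Other totals, median-centred ratios, finer clusters and a minimum of 500 genes each gave 2 and 10. So did leaving out shared barcodes, chosen after seeing the data. Over all genes these settings gave 3.216% to 3.534% higher and 5.2% to 5.835% lower. Leaving out doublets gave 2 and 12 of 98, beside 3.198% and 5.8% over all genes. Cells gated by markers instead of clusters allowed 18 combinations, with 1 higher and 2 lower, where 4.345% of all combinations were higher and 13.65% lower. On summed UMIs the ratios of Ccr9 in CD4 T-like (-0.94), Rara in naive CD4 T-like (-0.80), Dhrs3 in Treg-like (0.65) and Dhrs3 in LTi-like cells (0.92) were no longer past 2-fold, nor was Dhrs3 in Treg-like cells (0.97) without the cell with the most UMIs. Without that cell, stromal cells held 39.3% of the WT Aldh1a2 UMIs and dendritic clusters 42.0%, in turned order. On unthinned cells 6 of the 10 genes had the same class with the highest share as in the single draw first planned. With the mean over all draws, chosen after seeing the data, 7 of the 10 had the same class as in that draw. None of the 12 ratios counted as past 2-fold changed sign under any alternative that gave a value for it, whereas smaller ratios did, such as Rarg in Treg-like cells (0.15 on means and -0.36 on sums). The cause of these changes was not tested.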
